A study of Mus musculus with 18 samples.

Results

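Matricellular and fibrosis glycoproteins are secreted matrix proteins and matrix-modifying enzymes that accumulate in scarred hearts. A set of 10 of the 19094 protein-coding genes in the deposited count table was chosen by symbol: Fn1, Postn, Cilp, Comp, Thbs1, Thbs4, Spp1, Cthrc1, Lox and Loxl2. All 10 were found. Hearts came from 3 Bag3-P209L Tg+ mice and from 3 Bag3-WT mice of the same age, 16 months. The BAG3 protein, a co-chaperone, helps to clear damaged muscle proteins by autophagy, and P209L names the exchange of a proline for a leucine in it. Cardiomyocytes and cardiac fibroblasts were isolated from the same hearts, and the design asks how each cell type differs between the genotypes. Neither the strain nor the transgene's promoter and species of origin is stated in the sources used here. Per mouse there were 2 cardiomyocyte libraries (rep1 and rep2), whose counts were added up, and 1 fibroblast library. Replication was thus by mouse. The mice are numbered 1 to 3 within a genotype in the order of the labels, so equal numbers pair nothing, although Tg+ mouse 1 and Bag3-WT mouse 1 share the first part of their animal code. The codes of mice 1 to 3 hold the letters F, M and F in Tg+ and F, M and M in Bag3-WT mice. The letter is thus not balanced between the genotypes.

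Matricellular proteins bind cells and the collagen scaffold and alter how cells adhere and respond to growth factors, without being the main load-bearing fibres. In the healthy adult heart they are scarce. After injury, activated fibroblasts secrete fibronectin, periostin, thrombospondins and lysyl oxidases, and the lysyl oxidases then crosslink collagen. Cardiomyocytes are not their usual main source.

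Library depth and purity bear on every value below. The single libraries held 1217030 to 13927395 counts in cardiomyocytes and 17265088 to 61291983 in fibroblasts. Of these counts the 13 mitochondrial genes took 50.2 to 74.9% in Tg+ versus 72.3 to 85.5% in Bag3-WT cardiomyocytes. In fibroblasts they took 16.7 to 39.2% in Tg+ versus 25.1 to 74.2% in Bag3-WT mice. Levels are given as CPM, counts divided by the library total in units of 1000000 counts, scaled by the trimmed mean of M-values (TMM) over the 12 summed columns. The 8 cardiomyocyte markers summed to 865 to 1636 CPM in Tg+ versus 1517 to 2169 CPM in Bag3-WT cardiomyocyte libraries, against 344 to 571 CPM in Tg+ versus 351 to 822 CPM in Bag3-WT fibroblast libraries. The 8 fibroblast markers did not separate the labels. Between cell types 2 of the 8 (Col1a1 and Col1a2) were called higher in cardiomyocytes and 1 (Tcf21) lower, with a median log2 fold change of 0.14. Their sum was 2238 to 3504 CPM in Tg+ versus 1892 to 7050 CPM in Bag3-WT cardiomyocyte libraries, against 1205 to 2050 CPM in Tg+ versus 630 to 2057 CPM in Bag3-WT fibroblast libraries, with some overlap. The 6 macrophage markers ran the other way, at 280 to 952 CPM in cardiomyocyte and 1466 to 4492 CPM in fibroblast libraries. The 5 smooth muscle and myofibroblast markers ran from 243 to 1232 CPM in cardiomyocyte and from 64.9 to 84.4 CPM in fibroblast libraries, and the 5 mesothelial markers from 13.1 to 354 CPM and from 36.8 to 94.7 CPM in the same order. The cell names below are therefore those of the library labels. In such bulk samples, fewer cells of a type and less RNA per cell cannot be told apart. Bag3 itself lay at 46.8 to 77.1 CPM in Tg+ versus 43.0 to 131 CPM in Bag3-WT cardiomyocytes, and at 89.8 to 221 CPM in Tg+ versus 101 to 179 CPM in Bag3-WT fibroblasts, and its level did not separate the genotypes.

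Promoter sequences of 4 of the genes were held in the RefSeq table used here, on build GRCm38.p6. They are shown because they were available there, and were not picked by their results. Of these genes, Spp1 differed most clearly between the cell types. Thbs4 and Spp1 were the pair whose genotypes did not overlap in a cell type, and Postn and Cilp moved together over mice. Each line gives the 250 bases before the RefSeq start that lies nearest the annotated gene start, 5′ to 3′ on the gene's strand. Capitals mark matches to any of 5 motifs searched on both strands. The AP-1 motif was spelled TGANTCA and the motif of TEAD factors CATTCC. The motif of SMAD factors was spelled CAGACA and the box bound at core promoters TATAAA, called the TATA letters here. The last, for STAT factors, was spelled TTCNNNGAA, with N for any base. The windows were chr3:54360857-54361106 on the plus strand for Postn, chr9:65264930-65265179 on the plus strand for Cilp, chr13:92794819-92795068 on the minus strand for Thbs4 and chr5:104434861-104435110 on the plus strand for Spp1.
Postn: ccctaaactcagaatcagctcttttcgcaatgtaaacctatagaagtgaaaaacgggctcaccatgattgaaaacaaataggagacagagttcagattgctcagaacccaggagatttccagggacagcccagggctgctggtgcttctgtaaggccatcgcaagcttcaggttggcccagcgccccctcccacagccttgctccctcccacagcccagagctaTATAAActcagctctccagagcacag
Cilp: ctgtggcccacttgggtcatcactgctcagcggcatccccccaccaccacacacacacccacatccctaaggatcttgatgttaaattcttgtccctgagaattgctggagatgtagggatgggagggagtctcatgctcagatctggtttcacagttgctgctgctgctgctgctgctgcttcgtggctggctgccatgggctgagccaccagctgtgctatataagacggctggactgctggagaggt
Thbs4: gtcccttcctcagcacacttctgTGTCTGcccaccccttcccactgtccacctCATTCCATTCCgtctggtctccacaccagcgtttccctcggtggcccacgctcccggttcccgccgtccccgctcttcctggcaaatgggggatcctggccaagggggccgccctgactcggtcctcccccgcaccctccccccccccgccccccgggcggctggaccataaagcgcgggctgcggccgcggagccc
Spp1: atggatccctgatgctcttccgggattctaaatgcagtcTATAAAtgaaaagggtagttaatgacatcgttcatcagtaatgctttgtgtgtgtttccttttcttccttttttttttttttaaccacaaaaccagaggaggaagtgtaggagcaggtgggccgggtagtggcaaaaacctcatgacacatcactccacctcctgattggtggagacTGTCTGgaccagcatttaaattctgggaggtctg
Postn held the TATA letters at −26, counted from the start to the first base of the match. Thbs4 held 2 TEAD matches at −197 and −192, which share 1 base, and a SMAD match on the other strand at −227. Spp1 held a SMAD match on the other strand at −34 and the TATA letters at −211, farther from the start than those of Postn. Cilp held none of the 5. Only exact letters were matched, so a near spelling such as tatataag in the Cilp window was not marked. Over 32851 promoter windows of the same length, 12.4% held the TATA letters, 12.6% the TEAD motif, 17.1% the SMAD motif, 6.75% the AP-1 motif and 7.02% the STAT motif. The matches are letters in a window and were not tested against the expression values.

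Within mice, Fn1 RNA was higher and Spp1 RNA lower in the cardiomyocyte than in the fibroblast libraries. Cthrc1 also passed as higher, on few counts and with a call that 4 of the 6 mice each decided, and the other 7 genes did not pass the test. Fn1, which encodes fibronectin, was 3.67-fold higher in cardiomyocyte libraries, and Spp1, which encodes osteopontin, was 5.33-fold lower. None of the 9 genes tested by genotype passed in either cell type. Thbs1 and Lox differed more between mice of 1 genotype than between the genotypes, as did other genes of the set. Comp in Tg+ mice, for example, spanned 13.8-fold in cardiomyocytes and 23.1-fold in fibroblasts, against genotype differences of 1.72-fold and 1.28-fold. The log-scale plot of levels by mouse shows all 10 genes.

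**Figure D1:**
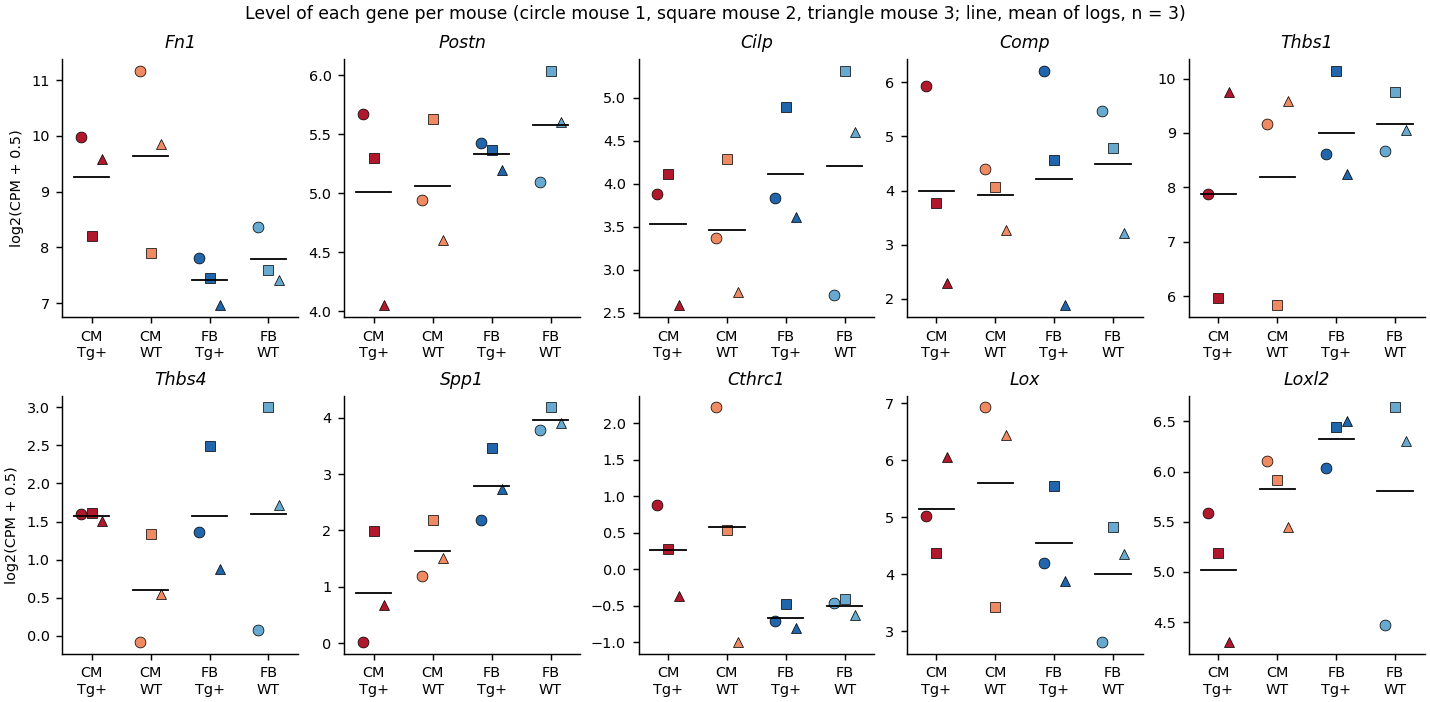
Level of each of the 10 genes in each mouse, as log2(CPM + 0.5), for Tg+ and Bag3-WT cardiomyocytes (CM) and Tg+ and Bag3-WT fibroblasts (FB). Points are mice (circle, square and triangle for mice 1, 2 and 3 of a genotype) and the line is the mean of the logs (n = 3). Fn1 sits higher in CM, Spp1 lower in CM, and Thbs1 in CM drops at both squares.

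Of the 10 genes, 2 were called higher in cardiomyocytes and 1 lower at an adjusted p under 0.05 (edgeR's quasi-likelihood test with mouse as block, Benjamini-Hochberg adjusted over 13891 genes). Over all genes tested 19.7% were called higher and 24.9% lower. Among the 2 called higher was Cthrc1, which entered the test only through the cardiomyocyte values where it is high, so that count is read as no more than the background. The median log2 fold change of the 10 genes was −0.52, beside −0.04 over all genes. At an unadjusted p under 0.05 stood 4 of the 10 genes and 52.4% of all genes. Only Fn1 and Spp1 moved in the same direction in all 6 mice, 2 of 10 genes, where 41.7% of all genes did so. When counts were scaled by library size alone, 8 of the 10 were called, 1 higher and 7 lower. That scaling moved the median of all genes to −0.95, and 457 genes were then called higher and 6616 lower.

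Fn1 (chr1:71585520-71653200, minus strand; GRCm38 and GENCODE M21, as for all genes here) encodes fibronectin, the adhesive glycoprotein of the provisional matrix. In cardiomyocytes it measured 1010, 296 and 773 CPM in Tg+ mice 1, 2 and 3, against 2305, 239 and 924 CPM in Bag3-WT mice 1, 2 and 3. In fibroblasts it measured 225, 175 and 124 CPM in Tg+ mice, against 328, 193 and 171 CPM in Bag3-WT mice. Mouse 2 of each genotype had the lowest cardiomyocyte value, yet in every mouse the cardiomyocyte value exceeded the fibroblast value. The log2 fold change of cardiomyocytes over fibroblasts was 1.88 (SE 0.36, edgeR adjusted p = 0.00188; higher in 6 of 6 mice). It was 1.87 (SE 0.54, adjusted p = 0.0375) within Tg+ mice and 1.89 (SE 0.56, adjusted p = 0.0359) within Bag3-WT mice, in the layout with the interaction. Marker lists differed between the cell types as well, in both directions. All 8 cardiomyocyte markers were called higher in cardiomyocyte libraries (median log2 fold change 1.92), as were all 5 smooth muscle and myofibroblast markers (median 3.34). Of 5 mesothelial markers 4 were called higher and 1 lower (median 2.71). Of 8 fibroblast markers 2 (Col1a1 and Col1a2) were called higher and 1 (Tcf21) lower (median 0.14). All 6 macrophage markers, 3 of 4 lymphocyte markers and 2 of 5 endothelial markers were called lower. Much of the fibroblast sum was type I collagen, as Col1a1 and Col1a2 averaged 2879 and 963 CPM in Bag3-WT cardiomyocyte libraries. The sum in cardiomyocyte libraries was highest in Bag3-WT mouse 1 (7050 CPM) and lowest in Bag3-WT mouse 2 (1892 CPM). These were the same mice as for Fn1. Among Tg+ mice, however, mouse 3 had the lowest fibroblast sum (2238 CPM), while Fn1 was lowest in mouse 2. The smooth muscle and myofibroblast sum was lowest in mouse 1 of each genotype (Bag3-WT 243 CPM, Tg+ 338 CPM), where Fn1 was highest. The cardiomyocyte sum was highest in mouse 2 of each genotype, where Fn1 was lowest. The mesothelial sum was highest in mouse 1 but lowest in mouse 3 of each genotype. The part of these lists in the result was not tested. By genotype, the log2 fold change of Tg+ over Bag3-WT was −0.75 (SE 0.79, unadjusted p = 0.373) in cardiomyocytes and −0.38 (SE 0.32, unadjusted p = 0.267) in fibroblasts, and neither passed.

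Postn (chr3:54361109-54391037, plus strand) encodes periostin, a matricellular protein used as a marker of activated cardiac fibroblasts. Its cardiomyocyte level was 50.5, 38.9 and 16.1 CPM in Tg+ mice, against 30.3, 49.2 and 23.8 CPM in Bag3-WT mice. Its fibroblast level was 42.5, 40.8 and 36.3 CPM in Tg+ mice, against 33.7, 65.3 and 48.3 CPM in Bag3-WT mice. All 4 groups overlapped, and the Tg+ fibroblast values were the closest together of the 4. The difference between cell types was −0.42 on the log2 scale (SE 0.22, adjusted p = 0.138; lower in 5 of 6 mice). Between genotypes it was 0.04 (SE 0.48) in cardiomyocytes and −0.29 (SE 0.25) in fibroblasts. Postn thus showed no genotype difference beyond the spread between mice in either cell type.

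Cilp (chr9:65265180-65280605, plus strand) encodes the cartilage intermediate layer protein, which binds TGF-beta. It measured 14.2, 16.8 and 5.50 CPM in Tg+ versus 9.80, 19.1 and 6.19 CPM in Bag3-WT cardiomyocytes. In fibroblasts it measured 13.7, 29.2 and 11.8 CPM in Tg+ mice and 6.02, 39.2 and 23.8 CPM in Bag3-WT mice. Mouse 2 was highest in all 4 groups. The log2 fold change of cardiomyocytes over fibroblasts was −0.69 (SE 0.31, adjusted p = 0.0918; lower in 4 of 6 mice) and passed only when Bag3-WT mouse 1 was left out (−0.95, adjusted p = 0.0209), apart from the scaling by library size alone. The genotype difference was 0.07 (SE 0.55) in cardiomyocytes and −0.34 (SE 0.63) in fibroblasts on the same scale, and both missed the threshold.

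The 3 thrombospondin genes behaved differently from one another. Comp (chr8:70373558-70382066, plus strand), thrombospondin 5 or cartilage oligomeric matrix protein, binds collagen and organises its fibrils. Its cardiomyocyte level was 60.6, 13.1 and 4.40 CPM in Tg+ mice, against 20.5, 16.2 and 9.18 CPM in Bag3-WT mice. Its fibroblast level was 73.7, 23.3 and 3.18 CPM in Tg+ mice, against 43.8, 27.0 and 8.79 CPM in Bag3-WT mice. In each of the 4 groups mouse 1 was highest and mouse 3 lowest, and the 2 extremes were both Tg+ mice. Between cell types Comp differed by −0.43 (log2, SE 0.22, adjusted p = 0.139), and it passed when Tg+ mouse 3 was left out (−0.59, adjusted p = 0.0277) or with the rep1 cardiomyocyte libraries alone (−0.66, adjusted p = 0.0346). The genotype difference was 0.78 (SE 0.82, unadjusted p = 0.368) in cardiomyocytes and 0.36 (SE 0.95, unadjusted p = 0.718) in fibroblasts. Tg+ mice spanned 13.8-fold in cardiomyocytes and 23.1-fold in fibroblasts, against 2.23-fold and 4.98-fold in Bag3-WT mice.

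Thbs1 (chr2:118111876-118127133, plus strand) encodes thrombospondin 1, an activator of latent TGF-beta and an inhibitor of vessel growth. In cardiomyocytes it measured 236, 62.3 and 861 CPM in Tg+ mice, against 573, 56.4 and 767 CPM in Bag3-WT mice. In fibroblasts it measured 393, 1129 and 303 CPM in Tg+ mice, against 407, 857 and 530 CPM in Bag3-WT mice. Mouse 2 of each genotype was thus the lowest in cardiomyocytes and the highest in fibroblasts. The within-mouse log2 difference was −4.17 in Tg+ mouse 2 and −3.91 in Bag3-WT mouse 2, while it was −0.74 or higher in the other 4 mice. The fitted difference between cell types was −0.86 (SE 0.85, adjusted p = 0.436). Between genotypes the log2 fold change was −0.28 (SE 1.04) in cardiomyocytes and 0.03 (SE 0.53) in fibroblasts. The 2 repeat libraries of a mouse gave nearly the same Thbs1 level, with a median absolute difference of 0.06 and a largest of 0.41 on the log2 scale, so the low values were seen in both. The animal codes of both mice numbered 2 hold the letter M, as does that of Bag3-WT mouse 3, whose cardiomyocyte level was high.

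Thbs4 (chr13:92751590-92794818, minus strand) encodes thrombospondin 4, a matricellular protein of heart and tendon. It was scarce, with 64, 36 and 17 counts in Tg+ and 3, 17 and 9 counts in Bag3-WT cardiomyocytes. As levels these were 2.53, 2.56 and 2.34 CPM in Tg+ cardiomyocytes, against 0.45, 2.01 and 0.96 CPM in Bag3-WT cardiomyocytes. In fibroblasts Thbs4 measured 2.06, 5.11 and 1.33 CPM in Tg+ mice, against 0.56, 7.49 and 2.78 CPM in Bag3-WT mice. The 3 Tg+ cardiomyocyte values lay above all 3 Bag3-WT ones, with no such separation in fibroblasts. The cardiomyocyte log2 fold change of Tg+ over Bag3-WT was 1.10 (SE 0.72, unadjusted p = 0.161, edgeR adjusted p = 1.00), which did not pass. Repeat libraries of 1 mouse differed in Thbs4 by a median of 0.69 and by up to 2.89 on the log2 scale. In fibroblasts the genotype difference was −0.35 (SE 0.84), and between the cell types −0.62 (SE 0.43, adjusted p = 0.263). The difference between those genotype effects, the interaction, was 1.41 (SE 0.80, unadjusted p = 0.109) and did not pass either.

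Spp1 (chr5:104435118-104441050, plus strand) encodes osteopontin, a secreted ligand of integrins and CD44 that macrophages make in injured hearts. Its cardiomyocyte level was 0.51, 3.49 and 1.10 CPM in Tg+ mice, against 1.78, 4.03 and 2.35 CPM in Bag3-WT mice. Its fibroblast level was 4.04, 10.5 and 6.12 CPM in Tg+ mice, against 13.3, 17.7 and 14.6 CPM in Bag3-WT mice. Every cardiomyocyte value lay under every fibroblast value, and in fibroblasts every Tg+ value lay under every Bag3-WT value. Spp1 was lower in cardiomyocytes by a log2 fold change of −2.41 (SE 0.26, edgeR adjusted p = 3.82e-05; lower in 6 of 6 mice). It was −2.29 (SE 0.40, adjusted p = 0.00367) within Tg+ mice and −2.53 (SE 0.39, adjusted p = 0.00174) within Bag3-WT mice. The macrophage markers moved with it, all 6 of 6 being lower in cardiomyocyte libraries (median log2 fold change −2.475). Called lower as well were 3 of 4 lymphocyte markers (list median −2.257) and 2 of 5 endothelial markers (list median −0.13). The part of these markers in the result was not tested.

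By genotype, Spp1 in fibroblasts had a log2 fold change of −1.13 (SE 0.33, unadjusted p = 0.0104), which did not pass after adjustment over 13571 genes (edgeR adjusted p = 0.768). The summed macrophage markers were also lower in Tg+ fibroblast libraries, without overlap. They measured 2342, 3373 and 1466 CPM in Tg+ mice, against 4492, 3523 and 3717 CPM in Bag3-WT mice. Over all genes tested in fibroblasts, the genotypes did not overlap for 13.1%. Lyz2, the lysozyme gene of macrophages, had an unadjusted p of 0.0418 there (log2 fold change −0.73, SE 0.30, adjusted p = 0.768). Over mice, the macrophage sum was highest in mouse 2 of Tg+ but lowest in mouse 2 of Bag3-WT fibroblasts, while Spp1 was highest in both. The 5 mesothelial markers summed to 36.84 to 55.86 CPM in Tg+ versus 49.85 to 94.74 CPM in Bag3-WT fibroblast libraries, with some overlap. Their median log2 fold change was −1.54, beside −0.74 for the 6 macrophage markers, and no gene of either list passed. What part these markers had in the Spp1 values was not tested. In cardiomyocytes the Spp1 genotypes overlapped, with a log2 fold change of −0.68 (SE 0.82), and the interaction was 0.24 (SE 0.55).

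Cthrc1 (chr15:39076932-39087121, plus strand) encodes a secreted protein of activated fibroblasts that was named for its collagen triple helix repeat. It was the sparsest of the set, with 34, 10 and 2 counts in Tg+ and 28, 8 and 0 counts in Bag3-WT cardiomyocytes. Fibroblasts held 4, 7 and 2 counts in Tg+ and 8, 9 and 4 counts in Bag3-WT mice. Mouse 1 was highest and mouse 3 lowest in cardiomyocytes of both genotypes. Its levels were 1.34, 0.71 and 0.27 CPM in Tg+ versus 4.16, 0.95 and 0 CPM in Bag3-WT cardiomyocytes, and 0.07 to 0.26 CPM over the 6 fibroblast columns. The log2 fold change of cardiomyocytes over fibroblasts was 2.25 (SE 0.81, edgeR adjusted p = 0.0413; higher in 5 of 6 mice). That call was lost without Tg+ mouse 1 (1.88, adjusted p = 0.148), without Tg+ mouse 2 (2.38, adjusted p = 0.0807), without Bag3-WT mouse 1 (1.74, adjusted p = 0.151) or without Bag3-WT mouse 2 (2.33, adjusted p = 0.0821). It was also lost with no filter on low counts (adjusted p = 0.058), with scaling by library size alone (1.30, adjusted p = 0.25) and in the authors' normalized table (1.23, adjusted p = 0.115). Cthrc1 passed the filter on low counts only through its cardiomyocyte values and was left out of both genotype fits by that filter.

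Of the collagen-crosslinking enzymes, Lox on chromosome 18 encodes lysyl oxidase, which oxidises lysines of collagen and elastin. Its cardiomyocyte level was 32.1, 20.3 and 66.2 CPM in Tg+ mice, against 121, 10.3 and 86.4 CPM in Bag3-WT mice. Its fibroblast level was 17.9, 46.1 and 14.3 CPM in Tg+ mice, against 6.52, 27.8 and 20.1 CPM in Bag3-WT mice. As for Thbs1, mouse 2 of each genotype was lowest in cardiomyocytes and highest in fibroblasts. The within-mouse log2 difference was −1.16 in Tg+ mouse 2 and −1.39 in Bag3-WT mouse 2, and ran from 0.82 to 4.12 in the other 4 mice. The fitted difference was 1.14 (SE 0.74, adjusted p = 0.235). The genotype difference was −0.89 (SE 0.78, unadjusted p = 0.287) in cardiomyocytes and 0.53 (SE 0.60, unadjusted p = 0.405) in fibroblasts.

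Loxl2 (chr14:69609068-69695834, plus strand) encodes lysyl oxidase-like 2, a second crosslinking enzyme. It measured 47.4, 35.9 and 19.2 CPM in Tg+ versus 68.2, 59.9 and 43.3 CPM in Bag3-WT cardiomyocytes. In fibroblasts it measured 65.0, 86.5 and 90.2 CPM in Tg+ mice and 21.8, 99.1 and 78.5 CPM in Bag3-WT mice. The Tg+ cardiomyocyte values were mostly lower, with Tg+ mouse 1 above Bag3-WT mouse 3, and Bag3-WT mouse 1 stood apart in fibroblasts. The log2 fold change of Tg+ over Bag3-WT was −0.74 (SE 0.40, unadjusted p = 0.101) in cardiomyocytes and 0.28 (SE 0.49, unadjusted p = 0.587) in fibroblasts. The interaction of −1.28 (SE 0.73, unadjusted p = 0.109) did not pass. Between cell types the difference was −0.69 (SE 0.40, adjusted p = 0.188; lower in 5 of 6 mice), and it passed when Bag3-WT mouse 1 was left out (−1.10, adjusted p = 0.0106). That fibroblast library had the highest mitochondrial share, 74.2%, and the lowest sum of fibroblast markers, 630 CPM.

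**Figure D2:**
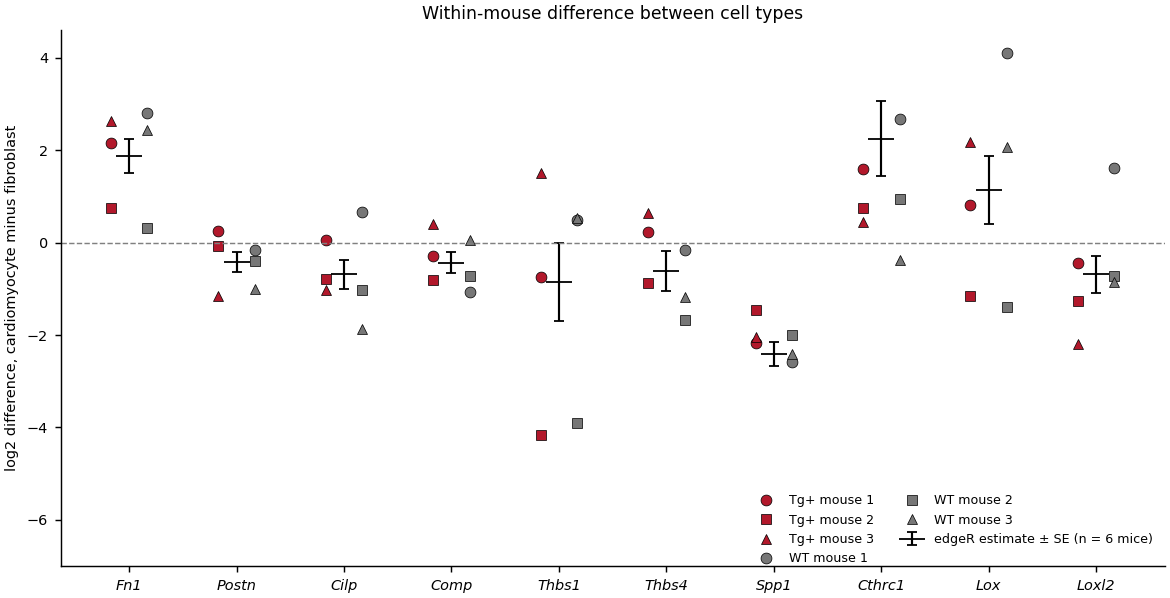
Within-mouse log2 difference of cardiomyocyte minus fibroblast level, log2(CPM + 0.5), for each gene in 3 Tg+ mice (red) and 3 Bag3-WT mice (grey). The black bar is the edgeR estimate ± SE over 6 mice. Fn1 is above 0 and Spp1 below 0 in all 6 mice, while Thbs1 and Lox split mouse 2 of each genotype from the other mice.

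In the genotype comparisons as a whole, edgeR's quasi-likelihood test called 0 of the 9 genes tested higher or lower in Tg+ cardiomyocytes, where 0% of 12439 genes were called in either direction. At an unadjusted p under 0.05 it had 0 of the 9 genes and 89 genes in all. DESeq2 called 3 genes in that comparison and limma voom 0. In fibroblasts it called 0 of 9, again beside 0% of 13571 genes in either direction. At an unadjusted p under 0.05 were 1 of the 9 (Spp1) and 690 genes in all, and DESeq2 called 6 genes and limma voom 0. In cardiomyocytes the genotypes did not overlap for 1 of the 9 genes, Thbs4, and for 4.86% of all genes. In fibroblasts they did not overlap for 1 of the 9, Spp1, and for 13.1% of all genes, a share near that of the set. The interaction called 0 of 10 genes and 0% of 13891 genes in either direction, with 124 genes at an unadjusted p under 0.05. DESeq2 called 1 gene and limma voom 0 for it.

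**Figure D3:**
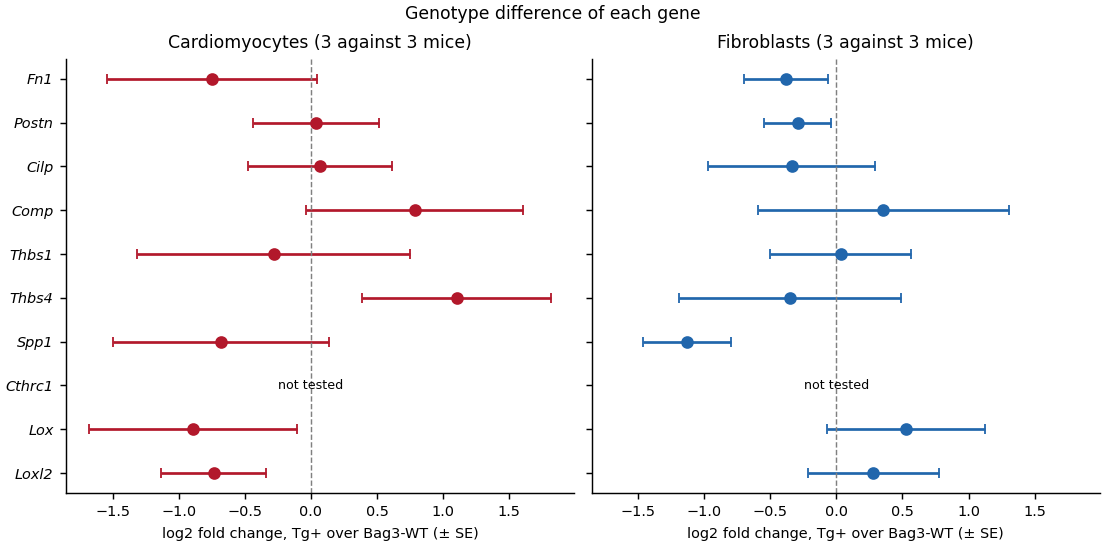
Log2 fold change of Tg+ over Bag3-WT ± SE (edgeR) for each gene in cardiomyocytes (left) and fibroblasts (right), 3 against 3 mice. No estimate passed the test, and Cthrc1 was not tested by genotype. Spp1 in fibroblasts, at −1.13, lies farthest from 0 in units of its SE.

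The median log2 fold change of the 9 genes by genotype was −0.28 in cardiomyocytes and −0.29 in fibroblasts, beside 0.01 over all genes in each. The median absolute value was 0.74 in cardiomyocytes and 0.35 in fibroblasts for the set, beside 0.25 and 0.22 for all genes. These medians describe the set and were not tested.

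Levels of different genes were compared per kilobase of the longest protein-coding transcript. In cardiomyocytes Fn1 led with 83.3 ± 43.8 in Tg+ and 139 ± 127 in Bag3-WT mice (CPM per kilobase, SD, n = 3), followed by Thbs1 with 66.1 ± 71.8 in Tg+ and 79.6 ± 62.8 in Bag3-WT mice. The ranges of these neighbours overlapped, as did those of every pair of neighbours in the cardiomyocyte order of either genotype. In fibroblasts Thbs1 led with 104 ± 77.5 in Tg+ and 102 ± 39.7 in Bag3-WT mice, and its range did not overlap that of Fn1, at 21.0 ± 6.09 in Tg+ and 27.7 ± 10.3 in Bag3-WT mice. Loxl2, Comp and Postn followed with means of 11.0 to 15.3, and Spp1, Cilp and Lox with means of 3.83 to 10.1. Thbs4 had 0.89 ± 0.63 in Tg+ and 1.13 ± 1.11 in Bag3-WT fibroblasts. Cthrc1 was last in fibroblasts, at 0.11 ± 0.07 in Tg+ and 0.18 ± 0.05 in Bag3-WT mice. In cardiomyocytes Thbs4 and Cthrc1 shared the last ranks.

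Some of the genes varied together over the 6 mice. In cardiomyocytes Thbs1 and Lox varied together (Pearson r = 0.93 of log2 levels, n = 6 mice), as did Fn1 and Lox (0.90) and Postn and Cilp (0.93), while Cilp and Thbs1 ran opposite (−0.94). In fibroblasts Cilp and Thbs4 (0.98), Thbs4 and Lox (0.91) and Cilp and Lox (0.90) varied together. Postn with Cilp (0.84) and Thbs1 with Lox (0.80) did so there as well, whereas Cilp with Thbs1 was positive (0.79) and Fn1 with Lox negative (−0.51). All points of a cell type share the same 6 libraries and their composition, so these values are descriptions only. No difference between the cell types was tested.

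**Figure D4:**
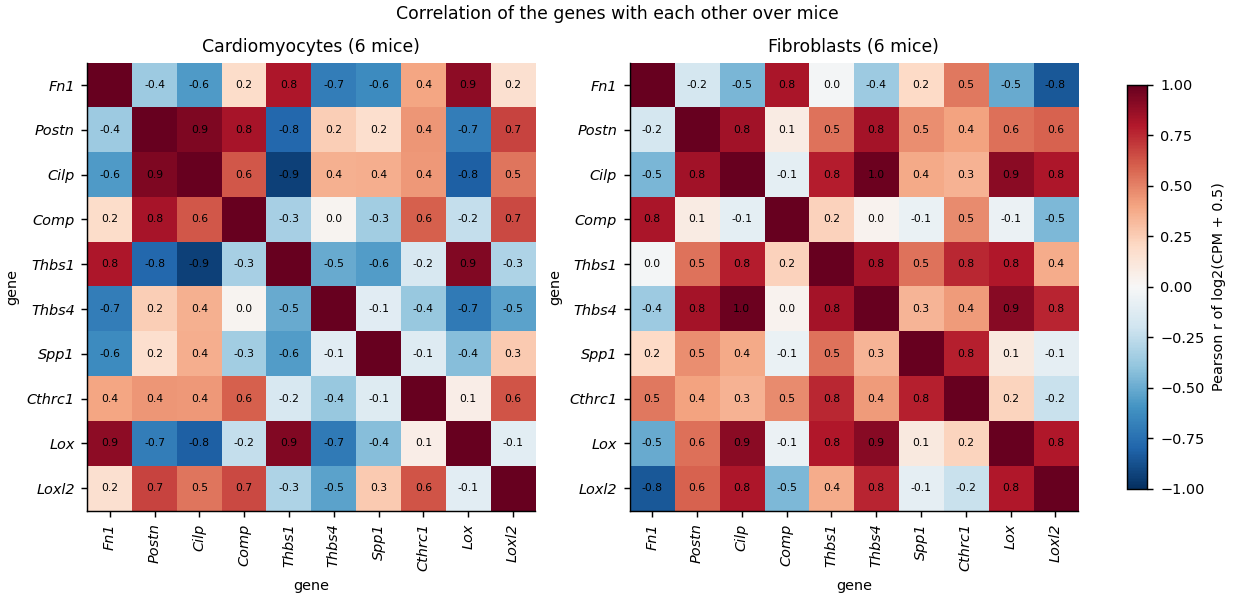
Pearson correlation of log2(CPM + 0.5) between each pair of the 10 genes over 6 mice, in cardiomyocytes (left) and fibroblasts (right), red positive and blue negative. Thbs1, Fn1 and Lox form a red block in cardiomyocytes, while Cilp, Thbs4 and Lox do so in fibroblasts.

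The same mouse could also be followed across its cell types. The correlation of cardiomyocyte with fibroblast level over 6 mice was 0.95 for Comp and 0.88 for Spp1, where the median of 13848 genes was 0.10. At or above the value of Comp were 0.571% of all genes, and at or above that of Spp1 2.59%. Thbs1 (−0.86) and Lox (−0.78) ran opposite in the 2 cell types, and 98.3% and 96.1% of genes had a higher value. Both cell types of a mouse come from 1 heart and 1 isolation, and with 6 points such a value rests on few mice. Fn1, Postn, Cilp, Thbs4 and Cthrc1 lay between 0.44 and 0.56, and Loxl2 at −0.53.

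**Figure D5:**
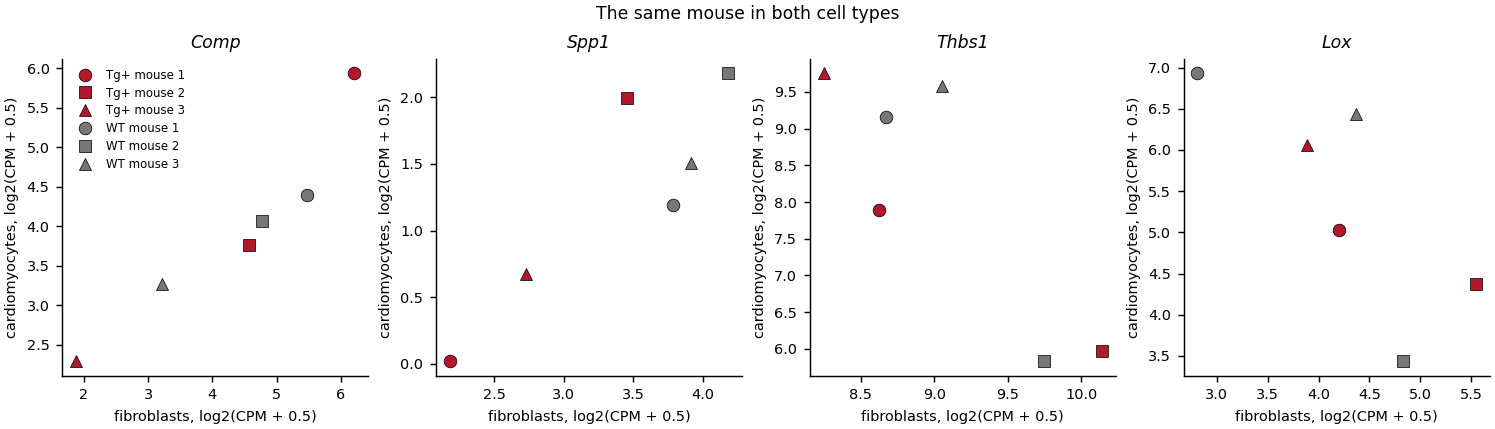
Level in cardiomyocytes against level in fibroblasts of the same mouse, log2(CPM + 0.5), for Comp, Spp1, Thbs1 and Lox in Tg+ (red) and Bag3-WT (grey) mice. Comp and Spp1 rise along the diagonal, and for Thbs1 mouse 2 of both genotypes lies at the lower right.

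Related matrix genes, from lists chosen with earlier results of these data known, were read beside the set. Of 20 matricellular relatives tested between cell types, 4 were called higher and 3 lower in cardiomyocytes, beside 19.7% of all genes higher and 24.9% lower, against which every list count here is read. Wisp1 (log2 fold change 3.15, SE 0.73, edgeR adjusted p = 0.00521) and Ctgf (2.52, SE 0.64, adjusted p = 0.00978), both secreted CCN family proteins, were higher. Tgfbi, a TGF-beta-induced adhesion protein (−1.33, SE 0.18, adjusted p = 0.000211), and Ecm1, an extracellular matrix glycoprotein (−1.35, SE 0.30, adjusted p = 0.00407), were lower. The median of this list was 0.31, against −0.52 for the set itself.

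Of 13 receptors for matrix glycoproteins 5 were lower and 0 higher in cardiomyocytes, with a median of −0.43, beside 24.9% of all genes lower and 19.7% higher. Sdc4, a syndecan that binds fibronectin, averaged 28.1 ± 14.4 CPM in Tg+ versus 28.4 ± 7.76 CPM in Bag3-WT cardiomyocytes, against 378 ± 96.5 CPM in Tg+ versus 426 ± 33.4 CPM in Bag3-WT fibroblasts (SD, n = 3 each; log2 fold change −3.91, SE 0.28, edgeR adjusted p = 2.51e-06). Cd44, the hyaluronan receptor that also binds osteopontin, had a log2 fold change of −3.24 (SE 0.29, adjusted p = 1.17e-05), beside Spp1 itself. The integrin chains Itga9 (−1.18, SE 0.22, adjusted p = 0.00146) and Itga4 (−1.47, SE 0.33, adjusted p = 0.00433), which bind matrix glycoproteins, were lower as well. Cd44 and Itga4 are also made by leukocytes, whose macrophage markers were higher in the fibroblast libraries, and that part was not tested.

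Among 5 fibrillar collagens, 2 were higher in cardiomyocytes and 0 lower. They were the type I collagen chains Col1a1 (log2 fold change 2.52, SE 0.57, edgeR adjusted p = 0.00505) and Col1a2, at 1.38 (SE 0.48, adjusted p = 0.0373). Of 9 proteoglycans, 2 were higher and 0 lower: Fmod (1.67, SE 0.43, adjusted p = 0.0091), which binds collagen fibrils, and Podn (0.74, SE 0.24, adjusted p = 0.0289). Of 13 genes of crosslinking and collagen processing, Loxl3 was higher (1.10, SE 0.37, adjusted p = 0.0316). The transglutaminase Tgm2 (−0.86, SE 0.21, adjusted p = 0.00614) and the prolyl hydroxylase subunit P4ha1 (−0.46, SE 0.17, adjusted p = 0.0442) were lower. Of 7 genes of TGF-beta ligands and latent binding, 2 were higher and 3 lower. Tgfb1, the main profibrotic ligand, was lower (−2.24, SE 0.19, adjusted p = 6.69e-06), as was Ltbp4 (−1.05, SE 0.29, adjusted p = 0.0122). Ltbp2 (2.94, SE 0.69, adjusted p = 0.00705) and Tgfb3 (0.69, SE 0.21, adjusted p = 0.0187) were higher. With library size alone, Podn (−0.16) and Tgfb3 (−0.21) changed sign, above the median of all genes in that fit, and Fmod, Loxl3 and Col1a2 lost their calls. In the authors' normalized table Fmod (adjusted p = 0.239), Loxl3 (0.0544) and Tgfb3 (0.0702) missed the threshold, as did Col1a2 (0.0593) and P4ha1 (0.054) with no filter and Podn (0.0819) with no mouse block. With the rep1 libraries alone Podn (0.0651) and Loxl3 (0.0654) missed it. Leaving out 1 mouse ended the call of Podn and Tgfb3 (Bag3-WT mouse 1 or 3, adjusted p = 0.0779 or 0.111 and 0.0514 or 0.0688) and of Loxl3 (the same mice, 0.0613 or 0.11). It also ended that of Col1a2 (Tg+ mouse 1, 0.103, or Bag3-WT mouse 3, 0.103) and that of P4ha1 (any mouse but Tg+ mouse 3, up to 0.138).

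By genotype none of these lists had a gene past the threshold in either cell type, and the interaction had none. The lowest unadjusted p of the matrix lists in cardiomyocytes belonged to Tnc, the tenascin C gene of injured tissue, at 125 ± 149 CPM in Tg+ against 21.7 ± 21.2 CPM in Bag3-WT cardiomyocytes (SD, n = 3 each; log2 fold change 2.50, SE 1.05, unadjusted p = 0.0434, adjusted p = 1.00). The integrin chain Itgb3 followed, at 6.83 ± 3.37 CPM in Tg+ against 13.8 ± 3.97 CPM in Bag3-WT cardiomyocytes (unadjusted p = 0.0543). In fibroblasts the lowest belonged to Fmod, at 4.65 ± 2.07 CPM in Tg+ against 10.1 ± 4.38 CPM in Bag3-WT fibroblasts (log2 fold change −1.09, SE 0.43, unadjusted p = 0.0376, adjusted p = 0.768). Col1a1 in cardiomyocytes averaged 1174 ± 443 CPM in Tg+ against 2879 ± 2115 CPM in Bag3-WT mice, a log2 fold change of −1.30 (SE 0.77, unadjusted p = 0.13) that did not pass.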

How the data were processed

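RNA of isolated cells was captured on oligo(dT) beads and sequenced on Illumina instruments, per the labels' protocols. Per gene, the authors deposited estimated counts, 44.7% of them not exactly whole as written. They also deposited a normalized signal, which served only as an alternative. Build GRCm38.p6 and the tools kallisto 0.44.0, R 3.4.4 and DESeq2 1.18.1 appear in the submitters' processing notes, with no role or order. How transcripts were annotated and joined into genes, and with what strand setting, is not stated in those notes or the labels.

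The 2 cardiomyocyte repeats of each mouse were added and rounded, which gave 12 columns from 18 libraries. Tests were two-sided and used edgeR 4.0.16 in R 4.3.3 (filterByExpr, TMM, robust glmQLFit, glmQLFTest) with Benjamini-Hochberg adjusted p under 0.05 over all genes tested. Cell types were compared within mice (mouse as block) and genotypes in each cell type alone (3 against 3). The interaction used the mouse-blocked layout. Alternatives were DESeq2 1.42.0, limma 3.58.1 (voom, or log2 of the authors' normalized table plus 1), scaling by library size, no filter, no mitochondrial genes, single repeats, the letter F or M of the animal codes as a covariate, and leaving out each mouse. The labels do not pair mice by repeat number. Across genotypes, the deviations of libraries with equal number from their genotype mean had a mean correlation of 0.0165, between −0.442 and 0.408. These deviations also hold the differences between mice, so the value cannot show whether the repeat number matters. The repeat number was left out of the main tests, where the repeats of a mouse were added up. It entered only an alternative, limma voom over 12 cardiomyocyte libraries with mouse as random effect, with and without the replicate block.

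Whether a mouse's 2 cardiomyocyte libraries come from 2 extractions is not given in the labels. Levels are CPM on the 12-column scale. Each fold change comes from its own fit, whose genotype fits were scaled within a cell type. The genes and lists were chosen with earlier results of these data known. All 10 genes are described. From each list up to 4 genes past the threshold between cell types and up to 2 with the lowest p by genotype could be named, by p. Likeness used genes with at least 5 CPM in every column. Gene spans of Fn1, Thbs1, Spp1, Lox and Loxl2 overlap other annotated genes, which without a strand setting may share reads.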

Additional observations from a re-analysis of the deposited data

Results flagged for a closer look

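Loxl2 in the fibroblasts of Bag3-WT mouse 1 had a log2 level of 4.48, log2(CPM + 0.5), and lay far under the other 5 mice. Its gap to the nearest of them was 0.72 of the whole range of the 6 fibroblast values. Of 30 gene and group combinations looked at in this way, 1 stood apart, and chance marks about 1 in 20. The same library had the highest mitochondrial share of the fibroblast libraries (74.2%), and whether this bears on Loxl2 was not tested.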

How the results depend on the processing

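Between cell types, Fn1 (1.02 to 2.32) and Spp1 (−3.35 to −2.25) kept direction and call in all 15 alternatives run, and no gene of the set changed direction. Scaling by library size alone called 8 of the 10 genes. It moved the median of all genes by genotype to 0.84 in cardiomyocytes and 0.36 in fibroblasts and to 0.30 for the interaction, and called 2, 2 and 1 genes there, where DESeq2 called 3, 6 and 1. Values given next are log2 fold changes of Tg+ over Bag3-WT, or the interaction, that changed sign, none of them past the threshold. With library size alone they were Fn1 0.34, Thbs1 0.16 and Loxl2 0.33 in cardiomyocytes, Fn1 0.12 in fibroblasts, and Fn1 0.23 and Thbs1 0.0051 for the interaction, all under the median of all genes in that fit. Postn in cardiomyocytes became −0.064 with limma voom, −0.012 with rep2 alone, −0.037 with the replicate block (mouse as random effect) and −0.028 with mouse as random effect only; the replicate block called 0 genes. In fibroblasts limma voom gave Comp −0.28, Thbs1 −0.14 and Thbs4 0.16, the authors' normalized table Comp −0.29, Thbs1 −0.19 and Thbs4 0.022, and the letter as covariate Cilp 0.49 and Thbs4 0.70. The interaction of Fn1 became 0.051 with limma voom, 0.035 without mitochondrial genes and 0.033 with rep1 alone, and that of Cthrc1 −0.0071 in the authors' table. The cause was not tested. Leaving out 1 mouse at a time, the values of all genes of the set tested, whether or not they changed sign, were as follows. In cardiomyocytes they ran: Fn1 −1.23 to 0.25, Postn −0.28 to 0.39, Cilp −0.25 to 0.63, Comp −0.76 to 1.28, Thbs1 −1.63 to 0.26, Thbs4 0.76 to 1.78, Spp1 −1.79 to −0.19, Lox −1.46 to −0.31, Loxl2 −1.02 to −0.45. In fibroblasts they ran: Fn1 −0.60 to −0.051, Postn −0.51 to −0.024, Cilp −0.85 to 0.30, Comp −0.97 to 0.91, Thbs1 −0.77 to 0.39, Thbs4 −1.09 to 0.79, Spp1 −1.57 to −0.86, Lox −0.17 to 0.98, Loxl2 −0.14 to 0.69. For the interaction they ran: Fn1 −0.76 to 0.52, Postn −0.064 to 0.62, Cilp −0.41 to 0.88, Comp 0.055 to 0.66, Thbs1 −1.74 to 1.10, Thbs4 1.05 to 1.91, Spp1 −0.19 to 0.59, Cthrc1 −0.64 to 1.88, Lox −2.51 to 0.28, Loxl2 −1.76 to −0.51. Few mice and sparse counts of Thbs4, Spp1 and Cthrc1 limit these values.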

Other observations

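Genes outside the set whose levels ran most like a member were looked for over the 12 columns, with log2 CPM centred within each cell type, among 6039 genes with at least 5 CPM in every column. The values are descriptions over columns that share libraries. For Fn1 they were Cog1 (Pearson r = 0.90), Gfpt1 (0.90) and Ell2 (0.89). For Postn they were Fam192a (0.93), Pofut2 (0.92) and Ubb (0.92). Cilp ran most like Prelp (0.94), a small proteoglycan, then Steap3 (0.93) and Abca8a (0.91). Thbs1 ran most like Tra2a (0.94), Fam126a (0.92) and Ppp2r2a (0.92), and Lox most like Ptp4a1 (0.94), Creb3l1 (0.93) and Ptbp1 (0.93). Loxl2 ran most like Adamts2 (0.95), a procollagen protease, then Fndc1 (0.92) and Fstl1 (0.92). Comp, Thbs4, Spp1 and Cthrc1 had columns under 5 CPM.

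The repeat libraries of cardiomyocytes differed most for the scarce genes. The median absolute log2 difference of rep2 over rep1 was 0.03 for Fn1, 0.12 for Postn, 0.12 for Comp, 0.14 for Lox, 0.19 for Cilp and 0.25 for Loxl2. It was 0.25 for Spp1, 0.69 for Thbs4 and 0.99 for Cthrc1.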
